A study of Homo sapiens with 22 samples.

Results

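A set of 643 regions listed for JUN in LNCaP was also listed for JUN in PC3 and in NCI-H660 cells. These regions are not among the places recovered in nearly every deposited list. They were drawn from the 2421 regions of the LNCaP siNC JUN list, out of 871377 regions in all 22 lists. They were selected on overlap alone. A region was taken if it overlapped by at least 1 bp a region of the PC3 siNC JUN list and a region of the NCI-H660 siNC JUN list, and if fewer than 17 of the 22 lists overlapped it. Of the 1013 LNCaP regions shared by the 3 lines, 370 were overlapped by 17 or more lists and are left out. The other LNCaP regions under the same limit number 1395. Under that limit 54.8% of the LNCaP regions overlapped the PC3 siNC list and 47.7% the NCI-H660 siNC list, values that the choice itself used. The 1395 lacked an overlap in PC3, in NCI-H660 or in both, and are called the unshared regions below. The choice rests on the lists themselves, so the sharing between lines and the number of lists are a description and carry no test.

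The study mapped chromatin binding in 3 human prostate cancer lines by ChIP-seq, which sequences the DNA recovered with an antibody, and open chromatin by ATAC-seq. Of the lines, LNCaP is luminal and expresses the androgen receptor, PC3 lacks that receptor and NCI-H660 is neuroendocrine. JUN was profiled after a control siRNA (siNC) in each line, after siFOXA1 in LNCaP, and after siFOXA2 in PC3 and NCI-H660. JUN was also profiled in vehicle-treated LNCaP cells made to overexpress FOXA2 (FOXA2OE) or its mutant form FOXA2K265R, which a second label of that sample calls FOXA2OE. FOSL1 was profiled in PC3 after siNC and siFOXA2. FOXA2 was profiled after vehicle and after 4 h of the LSD1 inhibitor ORY-1001 at 10 µM in PC3 and NCI-H660, after the LSD1 inhibitor C12 at 0.5 µM for 4 h in PC3, in vehicle-treated FOXA2OE cells, and in 2 further vehicle PC3 lists whose antibody the labels do not give. H3K27ac in PC3, H3K4me2 in NCI-H660 and ATAC-seq in both lines, all with vehicle, complete the lists. Stable lines of this kind were made by lentiviral infection and puromycin selection, so that the FOXA2 of these cells comes from an introduced gene. There was 1 list for each condition, so that nothing below has a replicate check. The lists hold neither reads nor coverage, and the depth is unknown. All intervals on shares are 95% Wilson intervals that cover counting error only, and regions are not replicates of a condition.

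JUN is a subunit of AP-1, a dimer of basic leucine zipper proteins of the JUN, FOS and ATF families that switches on genes within minutes of a growth or stress signal. Dimers of JUN with FOS proteins bind the 7-base site TGACTCA or TGAGTCA, whereas dimers with ATF proteins prefer the 8-base cyclic AMP response element (CRE), TGACGTCA. FOXA1 and FOXA2 are forkhead factors that open chromatin, and FOXA1 is the forkhead factor of luminal prostate cells. Promoters of the lines' marker genes were checked in the ATAC-seq lists. All 6 neuroendocrine markers had an accessible promoter in NCI-H660 and 4 of 6 had one in PC3, where CHGA and NEUROD1 had none. All 6 mesenchymal markers had one in both lines, so that open promoters did not separate the lines for that list. No ATAC-seq list of LNCaP was used here.

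The 643 regions fell into 3 kinds by sequence. There were 254 with an AP-1 site or a CRE within 100 bp of the centre, 39.5% (35.8 to 43.3), beside 34.6% of all 2038 LNCaP siNC JUN regions under the limit. A further 219 held no such site and lay in repeated sequence, which means that over 50% of their 51-base words, the length of a read, occurred more than once in the genome. The remaining 170 held no such site and lay mostly in unique sequence. This division was made after the values had been seen. It is used throughout because the kinds differed in almost every list, and a pooled value over all 643 mixes them.

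The windows printed here come from the regions that the results turn on, with AP-1 sites, CREs and the variant TGATGTCA in capitals. All are on the plus strand of hg19, and windows that touch a UTR are cut short. The first 4 are from promoters of genes that encode AP-1 subunits or dampen the signals upstream of them, and show which form of the site each carries. They are chr1:59249754-59249811 of JUN itself, chr19:18392600-18392657 of JUND, chr2:28615718-28615746 of FOSL2, and chr5:172198291-172198348 of DUSP1, a phosphatase that inactivates MAP kinases. KLF6, an immediate-early zinc-finger factor, is shown at chr10:3827541-3827598, and S100A2, a calcium-binding protein of basal epithelium, at chr1:153539159-153539187. The last 4 are distal. Those at KCNMA1 (chr10:79165609-79165665) and at the region whose nearest gene is SOX2 (chr3:181930403-181930459) were kept under siFOXA2 in both lines, whereas those at EMC3 (chr3:10018862-10018918) and ZNF330 (chr4:142297243-142297299) were kept in no knockdown.
JUN: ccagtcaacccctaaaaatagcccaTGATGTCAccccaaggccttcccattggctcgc
JUND: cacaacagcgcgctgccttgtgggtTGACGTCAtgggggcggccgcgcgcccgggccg
FOSL2: tgccattgtagTGACTCAtctcgggcaga
DUSP1: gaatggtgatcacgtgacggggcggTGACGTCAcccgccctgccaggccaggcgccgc
KLF6: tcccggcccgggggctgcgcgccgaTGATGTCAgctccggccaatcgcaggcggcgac
S100A2: tcagccctaagTGACTCAcccgaggttcc
KCNMA1: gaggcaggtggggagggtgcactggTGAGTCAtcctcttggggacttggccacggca
SOX2: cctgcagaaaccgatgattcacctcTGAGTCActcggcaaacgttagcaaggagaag
EMC3: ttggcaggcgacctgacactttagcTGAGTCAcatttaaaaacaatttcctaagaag
ZNF330: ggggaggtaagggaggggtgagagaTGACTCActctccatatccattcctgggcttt

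The 3 kinds differed in how often they recurred. Regions with a site were overlapped by a median of 11 lists, those without a site in unique sequence by 12, and those in repeated sequence by 14. Just inside the limit, at 16 lists, there were 104 shared regions and 17.3% of them held a site. Just outside, at 17 lists, there were 90 and 5.56% held a site, while at 12 lists it had been 61.9%. The share was 32.9% at 13 lists and 16.4% at 15.

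**Figure D1:**
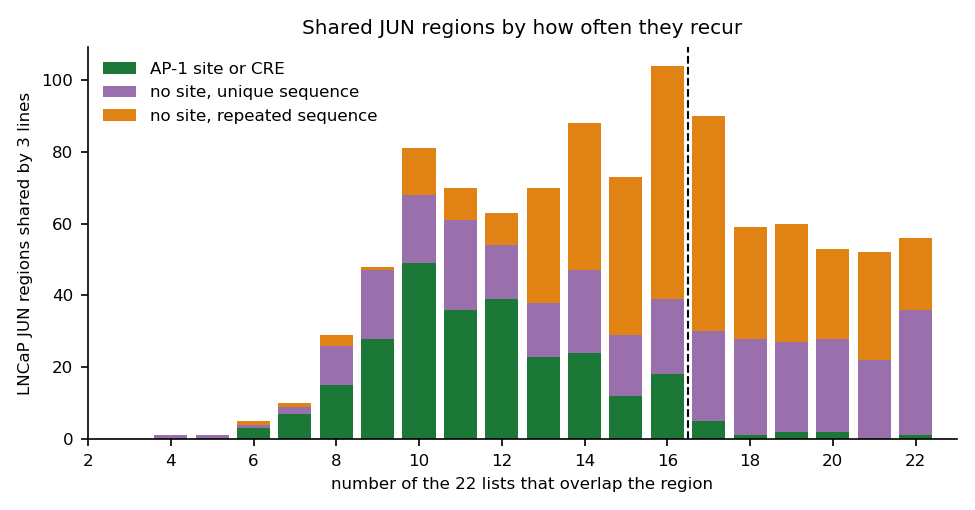
Number of LNCaP siNC JUN regions shared by the 3 lines (vertical axis) against the number of the 22 lists that overlap them (horizontal axis), stacked by kind of sequence, with a dashed line at the limit. Regions with an AP-1 site or CRE peak at 10 lists with 49 regions, and repeated-sequence regions at 16 lists with 65.

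AP-1 sites lay at the centres of the shared regions, at a share near that of all regions under the limit. There were 214 regions with TGACTCA or TGAGTCA within 100 bp of the centre, 33.3% (29.7 to 37.0), beside 29.6% of all regions under the limit. Windows of the same width 2 kb away held one in 2.26%, and windows at all 78577 protein-coding transcript starts in 2.45%. The 281 sites were concentrated at the centre, with 17 per 100 regions in each of the 2 central 50-bp bins. A single site was present in 167 regions, and 47 held more than 1. Read with 1 base on each side, the most frequent form was GTGACTCAC, with 57 of the 281 sites. CREs were rarer, in 44 regions or 6.84% (5.14 to 9.06), beside 5.45% of all regions under the limit, and in 0 of 1286 nearby windows, which allows a share of up to 0.298% at the upper bound of the interval. Of the 54 CREs, 23 read ATGACGTCAC. AP-1 sites and CREs were largely found in different regions, with 4 regions holding both.

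**Figure D2:**
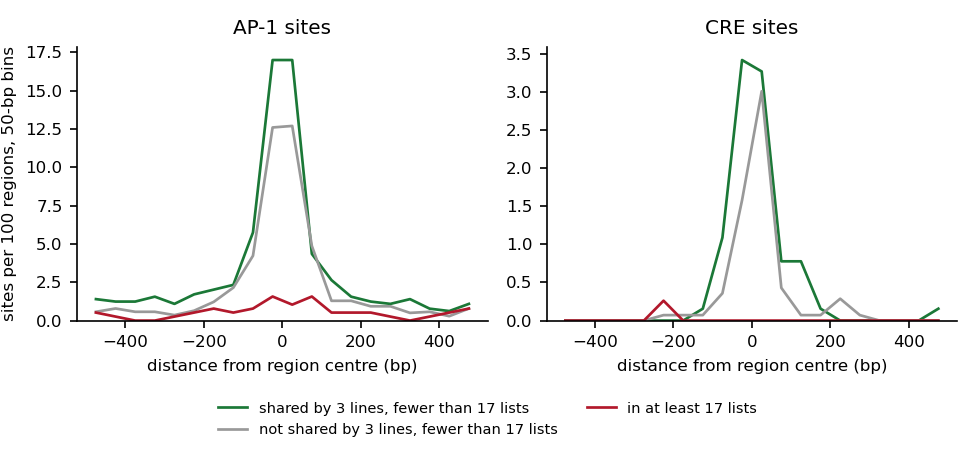
AP-1 sites (left) and CREs (right) per 100 regions in 50-bp bins (vertical axes) against the distance from the region centre in bp (horizontal axes). In shared regions under the limit the AP-1 curve reaches 17 and the CRE curve 3.42, whereas regions in at least 17 lists reach no more than 1.57 AP-1 sites in any bin.

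Among regions in unique sequence, the sharing partner went with the kind of site. Regions found in LNCaP but in neither other line held an AP-1 site or CRE in 30.4% (26.2 to 34.9) of 425. Those shared with PC3 alone held one in 57.0% (51.9 to 62.0) of 365, almost always an AP-1 site, since the CRE share was 0.548%. Those shared with NCI-H660 alone held one in 34.4% (29.1 to 40.2) of 276, of which the CRE share was 18.5%. The 421 shared by all 3 lines held one in 59.6% (54.9 to 64.2), with AP-1 sites in 50.1% and CREs in 10.5%. The AP-1 share of the regions common to the lines thus stood beside 56.7% (51.6 to 61.7) in the PC3 overlap, and their CRE share was below that of the NCI-H660 overlap. Over the whole siNC JUN lists, AP-1 sites were in 49.4% of PC3 and 13.8% of NCI-H660 regions, and CREs in 0.670% and 3.15%. Membership in the groups of LNCaP regions was set by the lists, and the site content was not.

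The regions without a site in unique sequence often held a base change of the CRE. The word TGACATCA or its reverse complement TGATGTCA, which the JUN and KLF6 windows carry, was present in 32 of 170, 18.8% (13.7 to 25.4). It was present in 0 of 219 repeated-sequence regions, an upper bound of 1.72%, and in 1.38% of protein-coding transcript starts. Unshared regions of the same kind held it in 113 of 634, 17.8% (15 to 21), and all LNCaP regions under the limit in 9.18%, so the word is not particular to the shared regions. This word was searched for after the JUN promoter had been read. A further 10 of the 170 held an AP-1 site or CRE elsewhere in the region. Forkhead words, which read TGTTTNN or TATTTNN with a purine and then a pyrimidine at the end and were searched on both strands, had a pooled share like that of nearby sequence. They occurred in 31.4% (27.9 to 35.1) of the 643 regions and in 31.6% of nearby windows, beside 38.3% of all regions under the limit and 41.4% (38.9 to 44) of the unshared regions. Within the regions with a site the shares diverged. Distal ones held a forkhead word in 40.8% (33.8 to 48.2), against 29.6% (25 to 34.6) of their nearby windows, and promoter ones in 15% (8.79 to 24.4), against 27.5% (21.2 to 34.9).

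Promoters took 126 of the 643 regions, 19.6% (16.7 to 22.8), when a promoter is 1 kb on either side of a protein-coding transcript start. The background over all LNCaP siNC JUN regions under the limit was 11.7%, and the unshared regions gave 8.10% (6.78 to 9.65). Among the unshared regions, those shared with NCI-H660 alone gave 21.3% (17.2 to 26.0). Those shared with PC3 alone gave 3.16% and those in neither other line 4.73%. A promoter share of this size is therefore not particular to regions shared by all 3 lines. The PC3 siNC JUN list had 8.44% and the NCI-H660 list 22.4%. Promoter regions held an AP-1 site in 37.3% and a CRE in 27.8% (20.7 to 36.2), and a site of either kind in 63.5%. The unshared promoter regions held an AP-1 site in 14.2% (8.91 to 21.8) of 113 and a CRE in 31.0%, so that in promoters the AP-1 share was higher among shared regions and the CRE share was not distinguishable. Distal regions held an AP-1 site in 32.3% and a CRE in 1.74% (0.918 to 3.27). The GC box GGGGCGG was found in 38.1% of the promoter regions, and in 6.13% of all LNCaP regions under the limit, beside 27.7% of transcript starts. By annotation, 67 of all 643 regions touched a UTR, 21 a coding exon and 193 lay in introns, while 362 were intergenic.

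The genes with a shared region in the promoter included the AP-1 genes themselves. There were 139 protein-coding genes of this kind, 0.702% of the 19807 annotated, beside 1.36% with any LNCaP siNC JUN region under the limit there. As the nearest gene within 50 kb of a shared region there were 337, or 1.70%. Of 19 AP-1 subunit genes 4 had one, namely JUN, JUND, FOSL2 and ATF3. Of 16 other ATF and CREB family genes 3 had one: CREB5, CREM and DDIT3, which encodes the stress factor CHOP. Of 45 immediate-early genes 4 had one: KLF6, DUSP1, and BTG1 and BTG2, which slow proliferation. KLF4 and NR4A1, from the same list, had a shared region as their nearest within 50 kb but outside the promoter. In the luminal list the 2 of 14 were KRT8 and KRT18, the keratins of simple epithelium, which face the same region. Splicing genes had 2 of 28 (TRA2B and DDX5), and the MAP kinase list 1 of 23 (MAP2K3, a kinase upstream of p38), the histone list 1 of 15 (H4C8) and the chromatin remodelling list 1 of 21 (INO80). The promoters of the other 8 lists held 0, namely FOXA factors and the LSD1 complex, neuroendocrine genes, YAP and TEAD, heat shock, p53 targets, cell cycle, translation and NF-kappaB. Some promoter regions outside these lists, picked after their values were seen, lay at ERBB3, RHOB, JAK2, TNFRSF12A and SREBF2 and at 2 further histone H4 genes, HIST1H4B and H4C5. Both of those, and H4C8, carried a CRE.

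At the JUN promoter (chr1:59249652-59250086, which reaches into the UTR) the score, the whole-number peak score of the deposited lists, was 300 in PC3 siNC and 5419 in NCI-H660 siNC. It was 527 in LNCaP siFOXA1, 373 in FOXA2OE and 2035 in FOXA2K265R, and 4677 in NCI-H660 siFOXA2, whereas no region was listed in PC3 siFOXA2. No FOXA2 list overlapped it. The variant word lies 60 bp upstream of the JUN start. JUND (chr19:18392383-18392743), a JUN family member that is often expressed in resting cells, was listed in every JUN list, with scores of 245 in LNCaP siFOXA1, 995 in FOXA2OE, 1811 in FOXA2K265R, 262 and 83 in PC3 siNC and siFOXA2, and 3299 and 3388 in NCI-H660. Its CRE lies 193 bp upstream of the start. The 2 PC3 FOXA2 lists with no labelled antibody overlapped the JUND region, at 126 and 45.

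FOSL2 (chr2:28615595-28615842), a FOS-family partner of JUN, was likewise in every JUN list, at 140 in LNCaP siFOXA1, 245 in FOXA2OE, 915 in FOXA2K265R, 458 and 194 in PC3 siNC and siFOXA2, and 688 and 493 in NCI-H660. It was in no FOXA2 list. ATF3 (chr1:212781653-212782123), a stress-induced ATF-family repressor, had 321 in PC3 siNC with no PC3 siFOXA2 region, and 2011 and 1683 in NCI-H660. It had 129 in LNCaP siFOXA1 and 1398 in FOXA2K265R. The 2 PC3 FOXA2 lists with no labelled antibody overlapped this ATF3 region, at 62 and 60. The promoter regions of all 4 AP-1 genes therefore stayed listed in LNCaP siFOXA1 and in NCI-H660 siFOXA2. Those of JUN and ATF3 were missing from the PC3 siFOXA2 list. A second shared region (chr1:212732255-212732533), outside the promoter and 6143 bp from the nearest start, that of ATF3, holds an AP-1 site and a CRE. It was kept in all 3 knockdowns, with 167 in LNCaP siFOXA1, 720 and 187 in PC3, and 1997 and 1728 in NCI-H660. This region was not among those named by rule.

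Of the 4 immediate-early promoters all stayed listed in NCI-H660 siFOXA2 and none was listed in PC3 siFOXA2. DUSP1 (chr5:172198188-172198470, CRE 118 bp upstream) had 115 in PC3 siNC and none in siFOXA2, and 1161 and 1052 in NCI-H660. KLF6 (chr10:3827407-3827778, variant word 93 bp upstream) had 109 in PC3 siNC and none in siFOXA2, and 1602 and 1745 in NCI-H660. BTG2 (chr1:203274346-203274604) had 113 and none in PC3, and 1385 and 1267 in NCI-H660. BTG1 (chr12:92539619-92539836) was the lowest, with 58 and none in PC3 and 445 and 404 in NCI-H660, and it alone of these 4 was overlapped in the PC3 and NCI-H660 FOXA2 lists of vehicle and inhibitor, at 233 in PC3 vehicle and 539 in NCI-H660 vehicle. The 2 PC3 FOXA2 lists with no labelled antibody overlapped BTG1, at 390 and 376, and also DUSP1, at 119 and 193. KLF6 and BTG2 were in no FOXA2 list. Of the 4, BTG2 was listed in LNCaP siFOXA1, at 93. All were scored lower in PC3 siNC than in NCI-H660 siNC, but scores depend on depth and background and are not a common scale between libraries.

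Of the promoters with the highest scores in both lines, S100A2 (chr1:153539035-153539320) carried 2 AP-1 sites and was kept in all 3 knockdowns. It had 1871 in PC3 siNC and 509 in siFOXA2, 2327 and 1913 in NCI-H660, and 187 in LNCaP siFOXA1. PPP2R5B (chr11:64691523-64691778), a regulatory subunit of protein phosphatase 2A, had 958 and 159 in PC3 and 1341 and 962 in NCI-H660. EXT1 (chr8:119124014-119124239), a heparan sulfate polymerase, had 555 and 180 in PC3 and 2425 and 2313 in NCI-H660, with neither an AP-1 site nor a CRE. The region between MBD6 and DDIT3 (chr12:57914355-57914732) had 597 in PC3 siNC and none in siFOXA2, and 1776 and 1317 in NCI-H660. POMT2 (chr14:77770073-77770349), a protein O-mannosyltransferase, was the exception. At 931 in PC3 and 1878 in NCI-H660 it was as high as the others, yet it was listed in none of the 3 knockdowns. It also differed in that all FOXA2 lists of PC3 and NCI-H660 overlapped it, with 529 in PC3 vehicle and 214 in NCI-H660 vehicle.

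After siFOXA1 in LNCaP, 363 of the 643 regions were still overlapped by a JUN region, 56.5% (52.6 to 60.2), beside 40.6% of all LNCaP siNC JUN regions under the limit and 33.3% (30.8 to 35.8) of the unshared ones. The pooled share hid a wide spread. Repeated-sequence regions were kept in 84.9% (79.6 to 89.1), site-free unique regions in 51.2% (43.7 to 58.6), and regions with an AP-1 site or CRE in 35.4% (29.8 to 41.5). Set against the unshared regions of the same kind, the shares were still higher, with 20.6% (17.1 to 24.6) for unshared regions with a site and 66.1% (60.7 to 71.2) for unshared repeated sequence. Promoter and distal regions with a site were kept alike, at 36.2% (26.6 to 47.2) of 80 and 35.1% (28.4 to 42.4) of 174, intervals too wide to exclude a moderate difference. Because the siNC list of LNCaP has no score, it could not be asked whether the lost regions had been the weaker ones.

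The distal regions with a site divided further by the forkhead word. With such a word within 100 bp of the centre, 14 of 71 were kept under siFOXA1, 19.7% (12.1 to 30.4). Without it, 47 of 103 were kept, 45.6% (36.3 to 55.2). Unshared distal regions with a site showed the same order, at 13% (8.98 to 18.5) of 192 with the word and 27.9% (22.2 to 34.3) of 208 without it, so the order is not particular to the shared regions. Under siFOXA2 the kept share in NCI-H660 was 49.3% (38.0 to 60.7) with the word and 72.8% (63.5 to 80.5) without it. In PC3 it was 29.6% (20.2 to 41.0) and 43.7% (34.5 to 53.3), where the intervals overlap. The FOXA2 lists of PC3 and NCI-H660 went the other way, and that of FOXA2OE overlapped 0 of 71 with the word and 2 of 103 without it. The PC3 FOXA2 vehicle list, which overlapped 43.7% of all LNCaP regions under the limit, overlapped 73.2% (61.9 to 82.1) of the regions with the word and 23.3% (16.2 to 32.3) of those without. The NCI-H660 FOXA2 vehicle list overlapped 36.6% (26.4 to 48.2) and 8.74% (4.67 to 15.8), beside a background of 27.6%. Of the unshared distal regions with a site, PC3 vehicle overlapped 57.3% with the word and 21.6% without, and NCI-H660 vehicle 9.90% and 1.44%. Accessibility of the shared distal regions with a site in PC3 was nearly the same with and without the word, at 98.6% and 99.0%.

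Under siFOXA2 in PC3, 347 of the 641 PC3 siNC JUN regions that the shared regions overlap were kept, 54.1% (50.3 to 58.0), beside a background of 12% over the 23504 PC3 siNC JUN regions under the limit. Regions of higher score are kept more often, and the shared regions had a higher score than most. When the other PC3 regions were weighted to the same score deciles, 16.9% of them were kept. The widest gap was in repeated sequence, which was kept in 89.0% (84.2 to 92.5) beside 12.6% of score-weighted other regions without a site. Repetition was not counted for those other PC3 regions, so they are not matched in kind. Of the 310 unshared repeated-sequence regions, the PC3 siNC JUN list overlapped 31.9% and the siFOXA2 list 36.1%, so frequent retention may not be particular to the shared regions. The shared regions with a site were kept in 32.3% (26.8 to 38.3), beside 25.9% of the score-weighted other regions with a site, which lies just below the interval. Distal regions with a site were kept in 37.9% (31.1 to 45.3) and promoter regions with a site in 20% (12.7 to 30). Of the 44 regions with a CRE, 2 were kept, 4.55% (1.26 to 15.1). Their PC3 scores were low, with a median in the fourth decile, and 5.51% of the score-weighted other regions with a site were kept.

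NCI-H660 under siFOXA2 gave the opposite order. There 294 of 642 were kept, 45.8% (42.0 to 49.7), near the background of 47.4% over 18022 regions and below the 63.2% of score-weighted other regions. Regions with a site were kept in 72.0% (66.2 to 77.2), beside 68.7% of score-weighted other regions with a site, and repeated-sequence regions in 10.0% (6.73 to 14.7). Regions with a CRE were kept in 42 of 44, 95.5% (84.9 to 98.7). Of these 44, 35 lay in promoters, and promoter regions with a site were kept in 91.2% (83 to 95.7), beside 91.4% of score-weighted other promoter regions with a site. Promoter regions as a whole were kept in 88.9% (82.2 to 93.3) against 35.3% (31.3 to 39.5) of distal regions. In PC3 the promoter share had been 18.3% (12.5 to 25.9) and the distal share 62.9% (58.7 to 67.0). The same opposite orders hold over all siNC JUN regions under the limit, of which 70.2% in promoters and 40.6% elsewhere were kept in NCI-H660, and 7.57% and 12.4% in PC3. Score-weighted other promoter regions were kept in 91.6% in NCI-H660, so the promoter share is not particular to the shared regions. The siFOXA2 list of NCI-H660 was the longer of its pair, with 59452 regions against 18401 in siNC, while in PC3 it was the shorter, with 4081 against 23890. The lists of each pair shared a processing folder. When the longer list of each pair was shortened by score to the length of the other, 126 of 176 partners or 71.6% (64.5 to 77.7) were kept in PC3, and 277 of 642 or 43.1% (39.4 to 47) in NCI-H660.

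**Figure D3:**
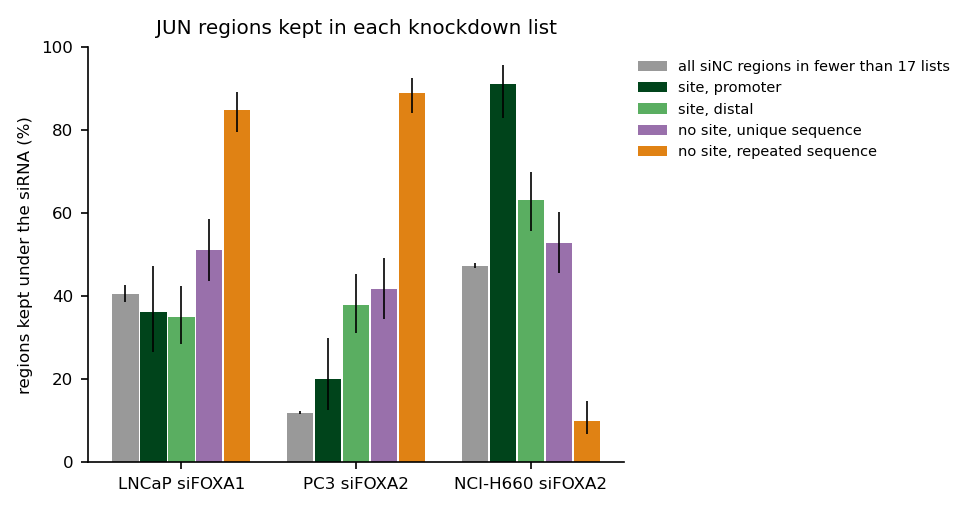
Share of JUN regions (vertical axis, %) still overlapped by a JUN region after each siRNA (horizontal axis), for all siNC regions of the line under the limit and for 4 kinds of shared region, with black lines for 95% Wilson intervals. Repeated-sequence regions stand at 84.9% and 89.0% in LNCaP and PC3 and at 10.0% in NCI-H660, while promoter regions with a site rise from 20% in PC3 to 91.2% in NCI-H660.

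Scores of the regions with a site that stayed listed were mostly lower after siFOXA2 in both lines. Counted as LNCaP regions overlapped by the PC3 siFOXA2 JUN list, 347 of 643 remained, beside 28.9% of all LNCaP regions under the limit. The choice required a PC3 siNC JUN region, which 54.8% of all LNCaP regions under the limit had. These shares are therefore not on equal terms. Of the 1395 unshared regions, the PC3 siNC JUN list overlapped 34.0% and the PC3 siFOXA2 JUN list 17.3%. In PC3, 81 of the 254 regions with a site were themselves overlapped in siFOXA2, and 80 of these 81 had a lower score there, with medians of 690 in siNC and 154 in siFOXA2. Repeated-sequence regions went from a median of 170 to 129, with 131 lower and 64 higher of 195. In PC3 the regions with a site that were lost had a median siNC score of 228, against 690 for those kept. In NCI-H660 the 181 kept regions with a site had medians of 543 and 380, and 159 were lower. The 20 kept repeated-sequence regions there had medians of 104 and 88, with 10 lower and 10 higher. The 199 repeated-sequence regions lost in NCI-H660 had a median siNC score of 175, above the 104 of the 20 that were kept, so a low score did not mark the lost ones. A list-wide shift of scores between libraries cannot be separated from a change at the regions.

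**Figure D4:**
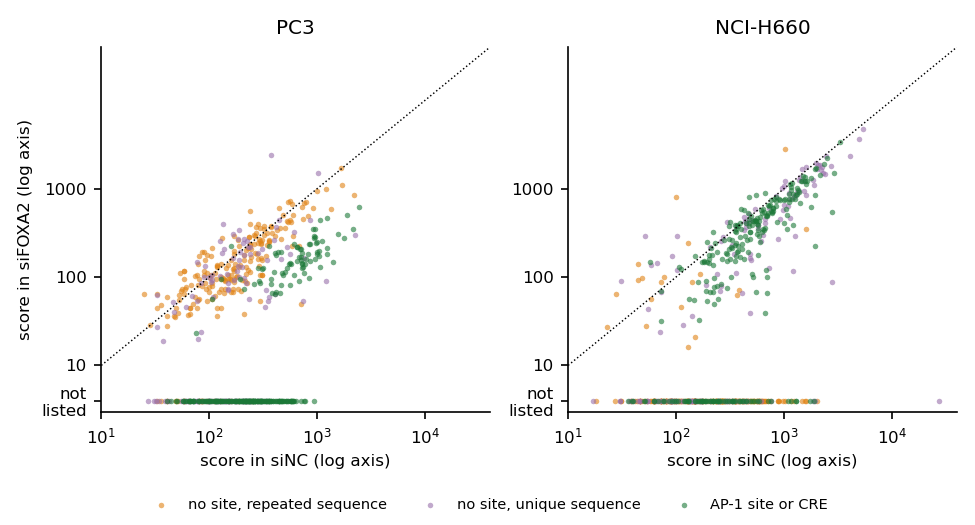
Score of each of the 643 regions in siFOXA2 (vertical axis, log) against siNC (horizontal axis, log) in PC3 (left) and NCI-H660 (right), coloured by kind of sequence, with unlisted regions along the bottom and a dotted line of equal scores. In PC3 80 of the 81 listed regions with a site lie below the line, with medians of 690 in siNC and 154 in siFOXA2, and the repeated-sequence regions lie closer to it.

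Across the 3 knockdowns together, 61 regions were kept in all of them and 64 in none. These are 9.49% and 9.95%, beside 4.02% and 36.4% of all LNCaP regions under the limit. Kept here means overlapped by the knockdown list, and the unshared regions lacked a siNC region in at least 1 of the other lines, so that these shares are not on equal terms. The most frequent outcome was loss in NCI-H660 alone, in 204 regions, of which 154 were of repeated sequence. The next was retention in NCI-H660 alone, in 134, of which 92 held a site. For regions with a site the full set of outcomes was broad, with 35 kept in all 3 lists, 39 in none, 32 in LNCaP and NCI-H660, 22 in PC3 and NCI-H660, and 13 in LNCaP and PC3. For promoters with a site the retention in NCI-H660 alone accounted for 42 of 80.

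Of the highest-scoring distal regions kept in all 3 lists, ZMIZ1 (chr10:80917386-80917607, in an intron) had 2262 in PC3 siNC and 298 in siFOXA2, 2303 and 1519 in NCI-H660, and 94 in LNCaP siFOXA1. It holds no AP-1 site or CRE, although it does hold a forkhead word and 296 was its score in the PC3 FOXA2 vehicle list. ANKRD10 (chr13:111522661-111522989, intergenic), with 2 AP-1 sites, had 940 and 274 in PC3 and 1939 and 1666 in NCI-H660. ALDH1A2 (chr15:58624348-58624650, in an intron of the retinoic acid-synthesising enzyme's gene) had 1106 and 255 in PC3 and 1286 and 854 in NCI-H660. Each of these 3 had a lower score after siFOXA2 in both lines. The region nearest CHORDC1 (chr11:90710780-90711027) behaved differently. It had 1027 and 1514 in PC3 and 2783 and 88 in NCI-H660, held no site, had 38.9% of its 51-base words repeated, and was overlapped by the FOXA2OE FOXA2 list.

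Distal regions with an AP-1 site and the highest scores also included KCNMA1 (chr10:79165502-79165793), in an intron of a potassium channel gene, with 1752 and 275 in PC3 and 1550 and 1225 in NCI-H660. The intergenic region nearest SOX2 (chr3:181930289-181930563), whose start is 500576 bp away, had 2153 and 351 in PC3 and 1787 and 621 in NCI-H660. CAPN2 (chr1:223894981-223895226), in an intron of a calpain gene, had 995 and 183 in PC3 and 2800 and 550 in NCI-H660, and that nearest KCTD6 (chr3:58457108-58457407) had 1003 and 191 in PC3 and 1922 and 222 in NCI-H660. The one nearest RPS24 (chr10:80218847-80219093) had 1405 and 148 in PC3 and 1291 with none in siFOXA2 in NCI-H660. None of these 5 was listed in LNCaP siFOXA1. The 4 of them with a forkhead word fell further in NCI-H660 than KCNMA1, which has none. This sets them against 1 region, and a part of the word was not tested. In the NCI-H660 FOXA2 vehicle list the scores were 792 at RPS24, 585 at KCTD6 and 227 at CAPN2, and SOX2 was not listed. In the PC3 FOXA2 list of the inhibitor series' vehicle the scores were 3331 at RPS24, 2035 at KCTD6 and 572 at SOX2, whereas CAPN2, despite its forkhead word, was in no PC3 FOXA2 list. KCNMA1 had 65 in 1 of the 2 FOXA2 lists with no labelled antibody and was in no other FOXA2 list.

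Regions that no knockdown list kept were led by POMT2 and by 4 distal regions. EMC3 (chr3:10018768-10019039, intron) had 768 in PC3 siNC and 296 in NCI-H660 siNC. ZNF330 (chr4:142297155-142297379, intergenic) had 514 and 285, and INTS11 (chr1:1253684-1253918, intron) had 358 and 591. These 3 hold an AP-1 site, and EMC3 and ZNF330 a forkhead word as well. The fourth (chr16:34002092-34002410), whose nearest gene has only the identifier ENSG00000284209, had 350 and 333, held no site, and was in the FOXA2OE FOXA2 list.

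The repeated-sequence regions had a distinct profile over the other lists. The FOXA2OE FOXA2 list, of 2500 regions, overlapped 98.6% of them, beside 0.787% of the regions with a site, 42.4% of the site-free unique regions and a background of 31.1%. The PC3 FOXA2 vehicle list overlapped 93.2% of them and 34.6% of the regions with a site. The PC3 FOSL1 siNC list overlapped 90.4% and 28.3%, beside a background of 29.9%. In contrast, the 2 PC3 FOXA2 lists with no labelled antibody overlapped 4.11% and 3.20% of the repeated-sequence regions, and 55.9% and 51.2% of the regions with a site, beside backgrounds of 34.7% and 32.3%. The median repeated-sequence region had 76.8% of its 51-base words repeated, with 67.0 copies of the median word. Its GC content was 39.4%, against 53.8% for regions with a site. Of these 219 regions 4 lay in promoters, among them the one at CREM. The highest-scoring were those nearest ELL2 (chr5:95439563-95439816), with 1659 and 1707 in PC3 siNC and siFOXA2 and 2003 with none in NCI-H660, and in an intron of MSH3 (chr5:80081338-80081556), with 1705 and 1087 in PC3 and 1610 with none in NCI-H660. Reads of repeated sequence cannot be placed with certainty, and the part of read placement in these lists was not tested.

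**Figure D5:**
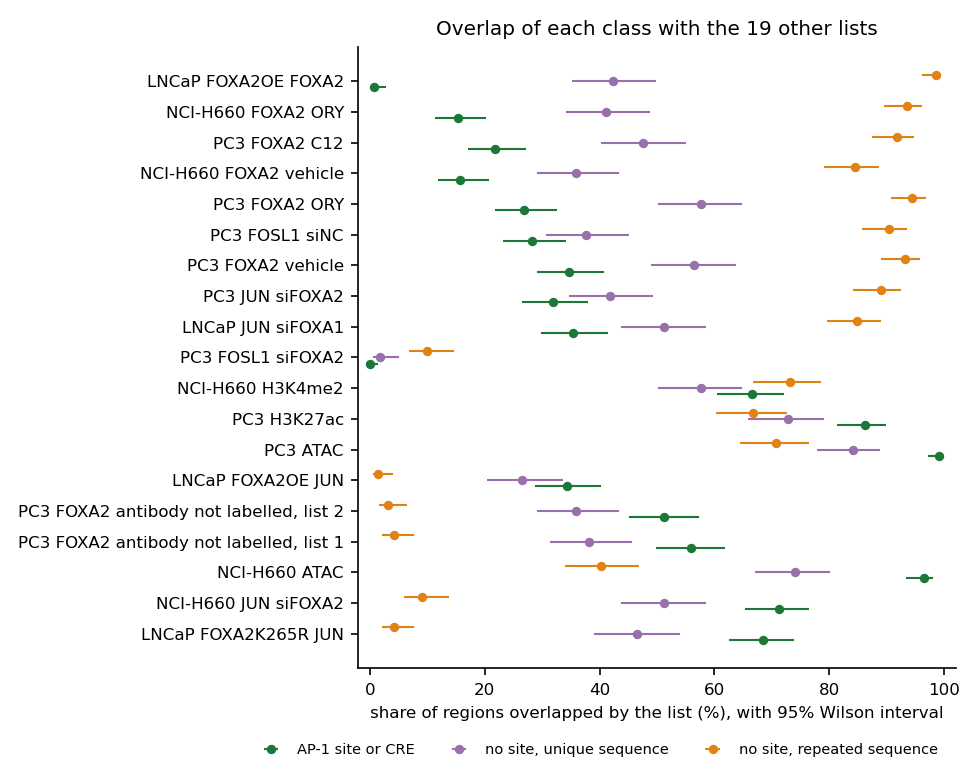
Share of regions (horizontal axis, %, with 95% Wilson intervals) overlapped by each of the 19 lists that the choice did not name (vertical axis), for the 3 kinds of shared region. The FOXA2OE FOXA2 list overlaps 98.6% of repeated-sequence regions and 0.787% of regions with a site, and the FOXA2K265R JUN list 4.11% and 68.5%.

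Regions with a site were open and marked in both of the other lines. PC3 ATAC-seq overlapped 99.2% of them and NCI-H660 ATAC-seq 96.5%, beside backgrounds of 71.7% and 49.4%, and repeated-sequence regions gave 70.8% and 40.2%. H3K27ac in PC3, a mark of active promoters and enhancers, overlapped 86.2% of them, and H3K4me2 in NCI-H660 66.5%, beside backgrounds of 51% and 40.3%. For H3K4me2 the repeated-sequence regions were no lower, at 73.1%. The choice required a JUN region in PC3 and in NCI-H660, which 54.8% and 47.7% of the background regions had. The ATAC-seq and histone mark shares are therefore not on equal terms with their backgrounds. FOXA2 lists of the vehicle and inhibitor series overlapped a smaller share of promoter than of distal regions with a site. The PC3 shares were 15% and 43.7% with vehicle, 10.0% and 34.5% with ORY-1001, and 10.0% and 27% with C12, for promoter and distal regions with a site. The backgrounds were 43.7%, 37.2% and 32.0%. In NCI-H660 they were 6.25% and 20.1% with vehicle and 5.00% and 20.1% with ORY-1001, beside 27.6% and 31.5%. These backgrounds pool all kinds of sequence. With vehicle, unshared regions with a site gave 7.84% in promoters and 38.8% elsewhere in PC3, and 0% and 5.50% in NCI-H660. The unshared regions lacked a JUN region in at least 1 of these lines, so these shares are not on equal terms. FOSL1 after siFOXA2 overlapped 0 of the 254 regions with a site, an upper bound of 1.49%, from a list of 1538 regions and a background of 3.09%. Unshared regions with a site gave 0.665% (0.226 to 1.94), so this low share is not particular to the shared regions.

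In LNCaP with FOXA2 overexpressed, the JUN list overlapped 34.3% of the regions with a site, and with FOXA2K265R 68.5%, beside backgrounds of 14.5% and 33.2%. For promoters with a site the shares were 65.0% and 91.2%, and for distal regions with a site 20.1% and 58.0%. Repeated-sequence regions gave 1.37% and 4.11%. The FOXA2K265R list held 47505 regions and the FOXA2OE list 23994, at minimum scores of 23 and 30, and both came from other processing folders than the LNCaP siNC list, so that folder, list length and cell type cannot be told apart. In distal regions with a site the shares with a forkhead word were 9.86% (4.86 to 19) in FOXA2OE and 42.3% (31.5 to 53.8) in FOXA2K265R, and without the word 27.2% (19.5 to 36.5) and 68.9% (59.5 to 77.1).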

How the data were processed

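ChIP-seq and ATAC-seq libraries of LNCaP, PC3 and NCI-H660 cells were aligned by the authors with bwa 0.7.17-r1188 to hg19, and regions were called with MACS2 2.1.4, per the submitters' processing notes. Each deposited file is a list of intervals, a unit treated as other than a measured value, and 20 of the 22 lists also hold a whole-number score that the authors deposited, read here as 10 times −log10 of the q-value. No score is held by the FOXA2OE FOXA2 list or by that of JUN in LNCaP siNC. How replicates were pooled, the control library and the MACS2 settings are not given in the sources used here. The members and the gene lists were chosen with earlier results of these data known, and the kinds of sequence, the word TGACATCA and the forkhead division after values had been seen.

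Overlap meant at least 1 bp. For the PC3 and NCI-H660 knockdowns the highest-scoring siNC region overlapping each member was followed. Other siNC regions were weighted to the members' 10 score deciles. Sequence came from the GRCh37 primary assembly, and genes from GENCODE in its version for that build. Repetition was counted over all 51-base words on both strands. Named regions are those at promoters of AP-1 subunit and immediate-early genes, the 5 promoter and 5 distal members with the highest mean score rank in PC3 and NCI-H660, the 5 highest kept in all knockdowns, the 5 kept in none, and the 5 highest distal with an AP-1 site. No sequence is printed for chromosome 8. Scripts ran in Python 3.11.15 with pysam 0.24.0, scipy 1.17.1 and numba 0.67.0, and the overlap, AP-1 word and repeat steps were tested on simulated data. With 1 list per condition no test between conditions was made. The alternatives were a 50% reciprocal overlap, a score of at least 30, equal list lengths, limits on lists, promoter widths and motif windows. By the region names, both LNCaP siRNA lists and the NCI-H660 JUN and FOXA2 lists came from 1 processing folder and the PC3 JUN lists from another.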

Additional observations from a re-analysis of the deposited data

Results flagged for a closer look

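The share of regions kept under siFOXA2 differed in opposite directions in PC3 and NCI-H660. In PC3 the promoter share minus the distal share was -44.6 percentage points (18.3% and 62.9%), whereas in NCI-H660 it was 53.6 points (88.9% and 35.3%). Over all siNC JUN regions under the limit the order reversed likewise, with 7.57% and 12.4% in PC3 and 70.2% and 40.6% in NCI-H660. Among distal shared regions 42.2% were of repeated sequence, and with a site alone the PC3 shares were 20% in promoters and 37.9% elsewhere. The share of regions with an AP-1 site or CRE minus that of repeated-sequence regions was -56.7 points in PC3 (32.3% and 89.0%) and 62.0 points in NCI-H660 (72.0% and 10.0%). With 1 list per condition the difference between the lines was not tested. In PC3 the siFOXA2 list was shorter than the siNC list, and in NCI-H660 it was longer.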

How the results depend on the processing

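Depth is unknown and each value rests on 1 list per condition, so only counting error is covered. No paired analysis was possible because no result comes from a test and each condition has 1 list. The limit on lists moved nearly every value. Without it the regions number 1013, and the values are 71.4% kept under siFOXA1, 69.3% under siFOXA2 in PC3, 55.9% in NCI-H660, 12.8% in promoters, 22.2% with an AP-1 site and 4.34% with a CRE. At fewer than 12 lists there are 245, with 33.5%, 18.0% and 62.3% kept, 33.5% in promoters, 42.9% with an AP-1 site, 14.7% with a CRE and 20.8% with a forkhead word. The lists enter both the limit and the kept shares. When the longer PC3 list was shortened to the 4081 regions of the other by score, 71.6% were kept, over 176 partners. A 50% reciprocal overlap gave 41.1% in NCI-H660. Wider windows raise the forkhead share, to 56.1% within 250 bp and 43.2% over the whole region. After seeing the data, regions outside the FOXA2OE FOXA2 list were taken alone: 35.1%, 27.3% and 73.0% were kept in LNCaP, PC3 and NCI-H660, 34.6% lay in promoters, 60.1% held an AP-1 site and 12.5% a CRE. Regions of unique sequence alone, also chosen afterwards, gave 41.6%, 36.0% and 64.5% kept, 29% in promoters, 50.1% with an AP-1 site and 10.5% with a CRE. The remaining 15 planned and 2 added alternatives stayed within the interval of the main value, or within 1.5 times the number of regions. The cause of these shifts was not tested beyond the choice of regions itself.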
